A study of Mus musculus with 4 samples.

Results

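Immediate early genes are the genes whose mRNAs appear within minutes of a growth factor or stress signal, without new protein synthesis. Most of them encode transcription factors, and many of their mRNAs are short-lived because AU-rich elements in the 3′ UTR draw in proteins that shorten the poly(A) tail. FOS and JUN proteins pair to form AP-1, EGR1 is a zinc-finger factor induced through the MAPK cascade and SRF, and MYC is a growth regulator linked to the self-renewal of mouse embryonic stem cells (ESCs). The genes described here are 10 of this class, *Fos*, *Fosb*, *Jun*, *Junb*, *Jund*, *Egr1*, *Ier2*, *Ier3*, *Ier5* and *Myc*. They were taken by symbol from a deposited table of 50559 genes. The rule used no expression value, but the genes were chosen with earlier results of these data known. All 10 had a mean of at least 10 reads and were among the 18586 genes analysed.

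The cells were E14 ESCs, grown on gelatin in serum replacement with leukemia inhibitory factor, and RNA was sequenced as stranded poly(A)+ libraries. Per the methods of the study, the parental ESCs carried a tdTomato transgene behind the *MERVL* promoter, and hairpins were delivered by lentivirus with puromycin selection of stable lines. The 4 libraries, 1 per group, are named by their titles, one of which is spelled with its letters transposed. They were shscr_EV (scrambled hairpin, empty vector), shYthdf2_EV (hairpin against *Ythdf2*, empty vector), shYthdf2_WT (the *Ythdf2* hairpin with wild-type YTHDF2) and shYtdhf2_Mut (the *Ythdf2* hairpin with YTHDF2 mutated in m6A binding). YTHDF2 is a cytoplasmic protein that binds N6-methyladenosine (m6A) in mRNA and recruits the deadenylation machinery. Which of the study's *Ythdf2* hairpins was used, the age of the lines and whether a line was a clone are not given in the sources used here. No group has a replicate in these data, so no p-value was computed, and the 95% intervals below cover counting error only. Every comparison is thus between libraries, not between conditions.

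Library totals ranged from 31533129 to 35742335 reads. *Ythdf2* itself had 2806 reads in shscr_EV, 662 in shYthdf2_EV, 7661 in shYthdf2_WT and 6925 in shYtdhf2_Mut, so it stood at 20.8% (95% interval 18.3 to 23.4) of the control in the knockdown library and above the control with either rescue construct, whose own reads count toward the gene where their sequence matches. The 10 ESC markers were detected in every library, with a summed level of 3154 to 3980 RPKM (reads per kb of exon and per 1e+06 scaled reads). Of 7 fibroblast feeder markers, *Lum* and *Dcn* had no read in any library, and the summed level ran from 4.98 to 8.58 RPKM, most of it from *Thy1*. The 9 markers of 2-cell-like cells, a rare ESC state, summed to 111 RPKM in shscr_EV, 283 in shYthdf2_EV, 137 in shYthdf2_WT and 291 in shYtdhf2_Mut. In the same order of libraries, 5 trophectoderm markers summed to 44.9, 29.8, 43.3 and 31.1 RPKM, high where *Fos* was high. Their median ran otherwise, at 5.75, 6.29, 5.46 and 8.13 RPKM. Of these markers *Krt8* had 1217, 670, 1193 and 553 reads, whereas *Eomes* had 675, 841, 668 and 961. The 6 primitive endoderm markers summed to 3.21, 4.44, 2.37 and 4.5 RPKM, high where *Myc* was high. Mitochondrial transcripts took 8.44% of reads in shscr_EV and 6.14% to 6.75% in the other libraries. In bulk RNA, fewer cells of a type and less RNA per cell cannot be told apart, and the part of these shifts in the results below was not tested.

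The transcripts of the class share sequence features that did not enter its choice. GC content of the longest GENCODE transcript was 51.9% for *Fos* to 67.1% for *Jund*, above the median of the tested genes (49.9%, over 16985 genes with a value) in 10 of 10. Summed exon length ran from 1090 bases (*Ier3*) to 3776 (*Fosb*), above the tested median of 3393 in 1 of 10. The transcripts had 1 to 4 exons where the median tested gene had 7. *Jun*, *Junb*, *Jund*, *Ier2* and *Ier5* had a single exon, as did 2.76% of the 14451 tested genes with an annotated 3′ UTR. The pentamer ATTTA, the core of AU-rich elements, was counted in the 3′ UTR, on the sense strand only. It occurred 5 times in *Ier3*, 4 times in *Fos* and in *Jun*, 2 times each in *Myc*, *Junb*, *Egr1* and *Ier5*, 1 time each in *Fosb* and *Jund*, and not at all in *Ier2*. Per kb of 3′ UTR this was 8.16 for *Ier3*, 4.91 for *Fos*, 4.52 for *Myc* and 4.12 for *Junb*, against a median of 1.24 over tested genes. The pentamer GGACT, the most common sequence context of m6A, occurred between 1.12 (*Egr1*) and 3.29 (*Ier2*) times per kb of transcript, above the tested median of 1.06 in 10 of 10. A pentamer is not a mapped m6A site or a mapped AU-rich element, and neither was measured in these libraries.

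The 30-base windows below are the stretches of 3′ UTR with the most ATTTA copies in the 4 genes where the pentamer was densest. They are shown because the same 4 genes later had the largest differences between the 2 rescue libraries. In the other main comparisons these genes did not hold the first 4 places. Capitals mark ATTTA. Positions are on mm10 (GENCODE vM21), at chr12:85477102-85477131 (+) for *Fos*, chr17:35822485-35822514 (+) for *Ier3*, chr15:61990135-61990164 (+) for *Myc* and chr8:84977126-84977155 (-) for *Junb*.
Ier3: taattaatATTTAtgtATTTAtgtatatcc
Fos: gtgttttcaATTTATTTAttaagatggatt
Myc: taacagatttgtATTTAattgtttttttaa
Junb: atatatttgtgtATTTAacagggaggggag
The *Fos* window holds overlapping copies, the *Ier3* window holds spaced copies, and the *Myc* and *Junb* windows hold 1 copy each.

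The *Fos* promoter is shown because *Fos* had the widest range of levels among the 10 genes. It is taken from RefSeq (GRCm38.p6, chr12:85473640-85473939, + strand) and runs from 250 bases before to 50 bases after the annotated start. Capitals mark TGACG, the core of the cAMP response element, which begins at -129 and -66 from the start.
Fos promoter: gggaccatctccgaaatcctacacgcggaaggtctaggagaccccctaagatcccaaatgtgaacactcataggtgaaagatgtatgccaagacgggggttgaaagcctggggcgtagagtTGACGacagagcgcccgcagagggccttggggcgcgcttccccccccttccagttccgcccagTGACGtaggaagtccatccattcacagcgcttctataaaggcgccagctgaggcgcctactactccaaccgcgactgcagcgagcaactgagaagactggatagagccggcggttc
The RefSeq promoter table held 7 of the 10 genes (*Fos*, *Fosb*, *Jun*, *Junb*, *Jund*, *Ier3* and *Ier5*). Both strands were searched. TGACG was found in *Fos*, *Fosb* and *Junb*, and in 20.8% of all 32851 promoters. GGGCGG, the GC box, was found in 5 of the 7 and in 35.7% of all, at -74 in *Fos*, where it does not overlap TGACG. The AP-1 site TGANTCA, the ETS core CCGGAA and the CArG box were in 0 of the 7 windows and in 7.81%, 14.9% and 1.63% of all promoters. Sites more than 250 bases before the start lie outside these windows and were not searched, so their absence from a gene is not shown.

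Levels per length spanned a wide range within each library. In shscr_EV the order was *Ier2* at 78.4 RPKM, *Fos* at 54.4, *Egr1* at 40.1, *Jund* at 37.4, *Junb* at 23.0, *Ier3* at 16.6, *Jun* at 10.3, *Myc* at 3.77, *Ier5* at 1.42 and *Fosb* at 1.37. In that order only *Egr1* and *Jund*, and *Ier5* and *Fosb*, had overlapping counting intervals with their neighbour. The median tested gene stood at 3.31 RPKM, and 8 of the 10 genes exceeded the median of the tested genes in each library, all but *Fosb* and *Ier5*. *Ier2* led and *Jund* was in the first 4 places in every library, whereas *Fos* held rank 2 of the 10 in shscr_EV, rank 3 in shYthdf2_WT and rank 5 in both other libraries. *Myc* held rank 8 in shscr_EV and shYthdf2_WT, rank 7 in shYthdf2_EV and rank 6 in shYtdhf2_Mut.

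**Figure D1:**
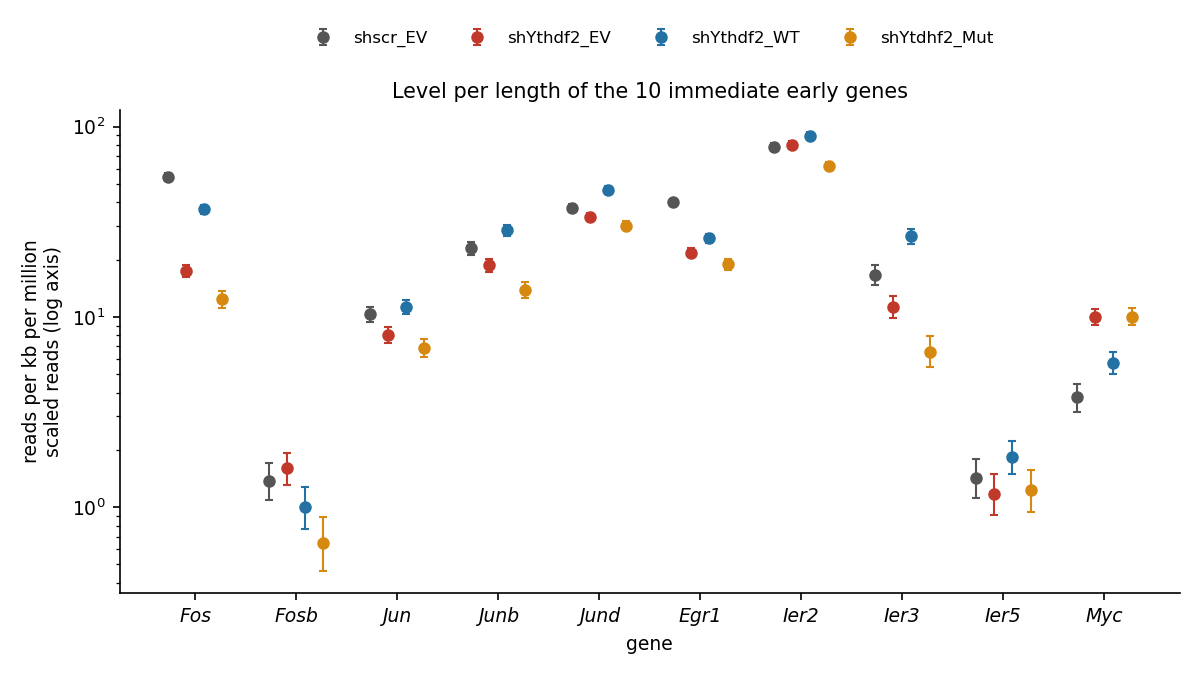
Level per length of each gene in RPKM (log axis) in the 4 libraries, with 95% Poisson intervals of the counts. *Fos* ran from 54.4 in shscr_EV down to 12.4 in shYtdhf2_Mut, *Myc* ran the other way from 3.77 to 10.03, and *Ier2* stayed highest in every library.

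On the FOS side of AP-1, *Fos* differed more between libraries than any other of the 10 genes, with a 4.40-fold span between its highest and lowest library. The gene lies on chromosome 12 (mm39 85520664 to 85524048, + strand), and its product is the transactivating partner of the JUN proteins. It had 3623 reads in shscr_EV, 1323 in shYthdf2_EV, 2551 in shYthdf2_WT and 829 in shYtdhf2_Mut. The knockdown library held 32.1% (29.3 to 35.1) of the control level, the wild-type rescue 67.6% (62.9 to 72.7) and the mutant rescue 22.7% (20.4 to 25.3). The wild-type rescue thus lay between control and knockdown, and the mutant rescue lay below the knockdown. In log2 ratios, shYthdf2_EV was -1.64 (-1.77 to -1.51) against shscr_EV, and 1.66% of the tested genes had a lower ratio. shYthdf2_WT was 1.07 (0.94 to 1.21) against shYthdf2_EV, and shYtdhf2_Mut was -0.50 (-0.68 to -0.32). Chromosome 12 as a whole was lower in the knockdown library, with a median of -0.25 over 735 tested genes against 0.01 on the other autosomes. Measured from that median, *Fos* was still at -1.39, and its ratio of shYthdf2_WT to shYthdf2_EV became 0.89.

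*Fosb* did not share this pattern. Its product pairs with JUN proteins like FOS, and a truncated form lacks most of the activation region. From chromosome 7 (19036621 to 19043970, - strand) it gave 163 reads in shscr_EV, 217 in shYthdf2_EV, 124 in shYthdf2_WT and 78 in shYtdhf2_Mut. It was highest in the knockdown library, but the ratio to the control, 0.23 (-0.20 to 0.66), included 0 within counting error. With wild-type YTHDF2 it was -0.68 (-1.15 to -0.22) against the knockdown, and with the mutant -1.29 (-1.87 to -0.76). The ratio of *Fos* to *Fosb* within a library, which needs no scaling between libraries, was 39.8 (31.9 to 50.3) per length in shscr_EV, 10.9 (8.90 to 13.5) in shYthdf2_EV, 36.8 (28.5 to 48.3) in shYthdf2_WT and 19.0 (13.7 to 27.1) in shYtdhf2_Mut. That ratio was alike in the control and the wild-type rescue and lower in both others, with intervals that did not overlap.

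The 3 JUN genes moved less. *Jun*, the most strongly transactivating of them and the usual FOS partner, lies on chromosome 4 (94937273 to 94940459, - strand) and had 1039, 922, 1184 and 694 reads in shscr_EV, shYthdf2_EV, shYthdf2_WT and shYtdhf2_Mut. Its log2 ratio was -0.36 (-0.54 to -0.17) in the knockdown against the control, 0.49 (0.31 to 0.67) in the wild-type rescue against the knockdown and -0.23 (-0.44 to -0.03) in the mutant rescue against the knockdown. *Junb*, a weaker activator that can oppose JUN, lies on chromosome 8 (85703538 to 85705377, - strand) and had 1336, 1234, 1729 and 810 reads in the same order. It was at -0.30 (-0.46 to -0.14), 0.61 (0.46 to 0.77) and -0.43 (-0.62 to -0.25) in those comparisons. *Jund*, which is the most constitutively expressed of the family, lies on chromosome 8 (71150389 to 71153265, + strand) and had 3400, 3465, 4415 and 2763 reads. Its ratios were -0.16 (-0.26 to -0.06), 0.48 (0.39 to 0.57) and -0.15 (-0.25 to -0.05).

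The order of the libraries was the same for all 3 JUN genes before correction for GC content, with shYthdf2_WT highest, then shscr_EV, shYthdf2_EV and shYtdhf2_Mut. All 3 are GC-rich, and ratios that involve shYthdf2_WT followed GC content over the whole transcriptome. After a smooth trend on GC content and exon length was removed, the ratio of shYthdf2_WT to shYthdf2_EV was 0.34 for *Jun*, 0.40 for *Junb* and 0.27 for *Jund*, and the ratio of shYtdhf2_Mut to shYthdf2_EV was -0.19, -0.23 and 0.06. The sign for *Jund* in shYtdhf2_Mut against shYthdf2_EV turned with the correction. So did its sign in shYthdf2_WT against shscr_EV, from 0.32 (0.23 to 0.41) to -0.08, while *Jun* and *Junb* came to 0.02 and 0.00 there.

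The make-up of the AP-1 mRNA pool shifted accordingly. *Fos* made up 43.0% of the summed level per length of the 5 AP-1 genes in shscr_EV, 22.02% in shYthdf2_EV, 29.6% in shYthdf2_WT and 19.3% in shYtdhf2_Mut. *Jund* made up 29.6%, 42.3%, 37.5% and 47.3% in the same order. *Fos* was the leading AP-1 mRNA in shscr_EV and *Jund* in each of the other libraries. The ratio of *Fos* to *Jund* per length was 1.45 (1.36 to 1.55) in shscr_EV, 0.52 (0.48 to 0.57) in shYthdf2_EV, 0.79 (0.74 to 0.84) in shYthdf2_WT and 0.41 (0.37 to 0.46) in shYtdhf2_Mut, and none of these intervals overlapped.

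*Egr1*, the zinc-finger factor that reads out ERK signalling, was highest in the control and lower in each hairpin library. It lies on chromosome 18 (34994260 to 34998009, + strand) and had 3889 reads in shscr_EV, 2407 in shYthdf2_EV, 2614 in shYthdf2_WT and 1847 in shYtdhf2_Mut. The knockdown library held 54.4% (50.6 to 58.5) of the control level, the wild-type rescue 64.5% (60.1 to 69.2) and the mutant rescue 47.2% (43.6 to 51.1). Wild-type YTHDF2 was 0.25 (0.13 to 0.36) above the knockdown in log2 ratio, and this became 0.07 after the GC and length correction. Against the control the wild-type rescue stood at -0.63 (-0.73 to -0.53), or -0.78 after correction, and was nearer to the knockdown than to the control on either scale. The ratio of *Fos* to *Egr1* per length was 1.36 (1.27 to 1.45) in shscr_EV and 1.42 (1.31 to 1.54) in shYthdf2_WT, overlapping, and 0.80 (0.73 to 0.88) and 0.65 (0.58 to 0.73) in shYthdf2_EV and shYtdhf2_Mut.

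The 3 IER genes differed from one another. *Ier3* (chromosome 17, 36132605 to 36133803, + strand) encodes a stress-induced protein that modulates apoptosis and ERK signalling. It had 572 reads in shscr_EV, 441 in shYthdf2_EV, 954 in shYthdf2_WT and 228 in shYtdhf2_Mut. The wild-type rescue was 1.24 (1.01 to 1.48) above the knockdown and at 160% (138 to 186) of the control, and the mutant rescue was -0.77 (-1.11 to -0.44) against the knockdown and at 39.7% (31.6 to 49.4) of the control. The 2 rescue libraries thus lay on opposite sides of both other libraries.

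*Ier2* (chromosome 8, 85387960 to 85389481, - strand), which encodes a nuclear protein, had 3771, 4393, 4498 and 3005 reads and was the steadiest of the 10, with a 1.45-fold span between its highest and lowest library. Its knockdown ratio to the control was 0.03 (-0.06 to 0.12), an interval that includes 0, and the GC and length correction gave -0.04. *Ier5* (chromosome 1, 154972113 to 154975382, - strand), a regulator of heat shock factor HSF1, had 147, 138, 197 and 128 reads. Its ratios to the control were -0.28 (-0.77 to 0.22), 0.36 (-0.09 to 0.82) and -0.21 (-0.72 to 0.29), which at this depth all included 0. The ratio of *Ier3* to *Ier2* per length was 0.21 (0.19 to 0.24) in shscr_EV, 0.14 (0.12 to 0.16) in shYthdf2_EV, 0.30 (0.27 to 0.33) in shYthdf2_WT and 0.11 (0.09 to 0.13) in shYtdhf2_Mut.

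*Myc* differed in the opposite direction to *Fos* in the knockdown against the control and in the wild-type rescue against the knockdown. It lies on chromosome 15 (61857190 to 61862210, + strand) and had 286 reads in shscr_EV, 861 in shYthdf2_EV, 452 in shYthdf2_WT and 765 in shYtdhf2_Mut. The knockdown library held 264% (219 to 322) of the control level, the wild-type rescue 152% (123 to 188) and the mutant rescue 265% (219 to 324). The wild-type rescue lay between control and knockdown at -0.80 (-1.04 to -0.57) against the knockdown, and the mutant rescue was at 0.01 (-0.20 to 0.21). The ratio of *Fos* to *Myc* per length fell from 14.4 (12.1 to 17.2) in shscr_EV to 6.42 (5.57 to 7.43) in shYthdf2_WT, 1.75 (1.55 to 1.98) in shYthdf2_EV and 1.23 (1.07 to 1.42) in shYtdhf2_Mut. *Myc* was high in the libraries where the 2-cell-like markers were high (283 and 291 RPKM summed) and low where they were low, and the part of that state in its level was not tested.

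**Figure D2:**
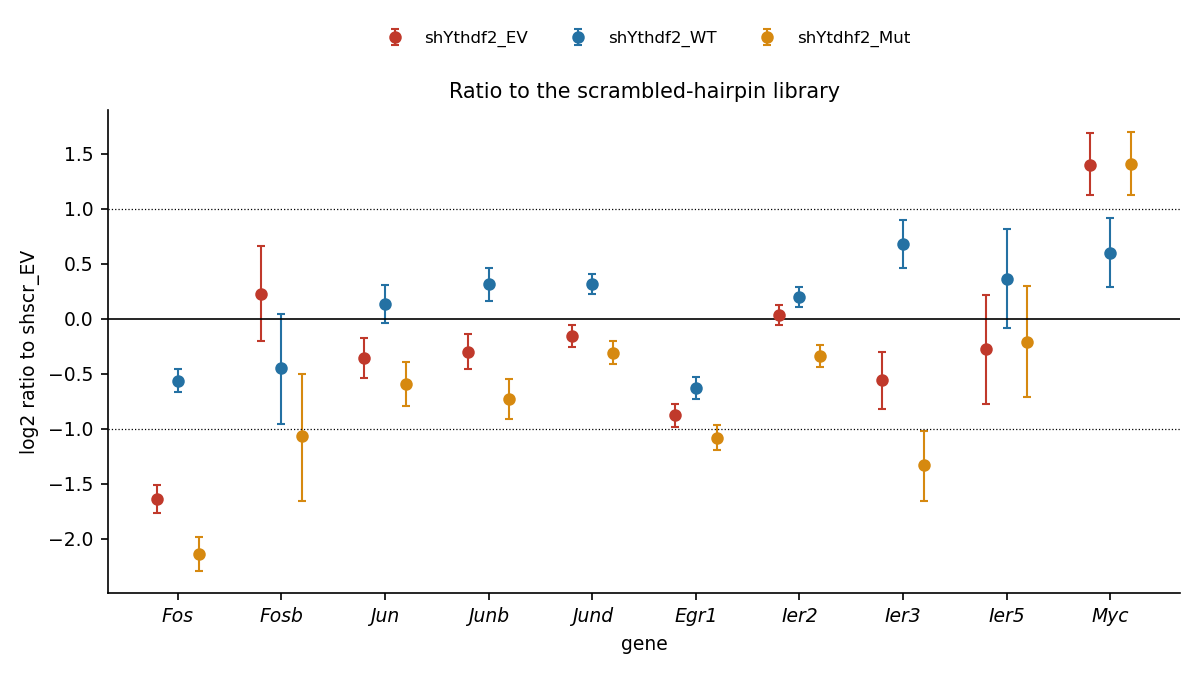
Log2 ratio of each gene to shscr_EV in the knockdown and both rescue libraries, with 95% Clopper-Pearson intervals on read pairs (1 library per group). Dotted lines mark 2-fold differences. *Fos*, *Egr1* and *Ier3* lay lowest in shYtdhf2_Mut, at -2.14, -1.08 and -1.33, while *Myc* lay at 1.40 and 1.41 in shYthdf2_EV and shYtdhf2_Mut.

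As a list, the 10 genes were lower on balance in the knockdown than in the control library. There 7 of the 10 were lower, where 50.2% of tested genes were, and the median log2 ratio was -0.29 (members' median bounds -0.50 to -0.10) against 0.00 for all tested genes. *Fos* was the 1 gene at least 2-fold lower, as were 5.70% of tested genes, and *Myc* the 1 gene at least 2-fold higher, as were 7.10%. With wild-type YTHDF2, 2 of the 10 were lower than in the knockdown, *Fosb* and *Myc*, where 49.6% of tested genes were lower. The median there was 0.48 (0.25 to 0.62), or 0.31 with 3 lower after the GC and length correction. *Fos* and *Ier3* were at least 2-fold higher as were 5.15% of tested genes, and 0 were at least 2-fold lower, as were 5.58%.

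With the mutant, 8 of the 10 were again lower than in the knockdown, all but *Ier5* and *Myc*, where 48.8% of tested genes were. The median was -0.30 (-0.46 to -0.16), or -0.17 with 7 lower after the correction. There 1 gene, *Fosb*, was at least 2-fold lower against 3.38% of tested genes, while 0 were at least 2-fold higher, against 2.65%. Between the rescue libraries, 9 of the 10 were lower with the mutant than with wild-type YTHDF2, where 51.0% of tested genes were, and the median was -0.62 (-0.98 to -0.48). *Fos*, *Ier3* and *Junb* were at least 2-fold lower, against 6.21% of tested genes. None was at least 2-fold higher, against 5.40%, and *Myc* came nearest at 0.81 (0.57 to 1.05). A median over 10 genes of related function describes these libraries and is not a test of the list.

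shYtdhf2_Mut held the lowest level of 8 of the 10 genes, all but *Ier5* and *Myc*, while 25.9% of tested genes were lowest in that library. The same 8 genes were lowest there after the GC and length correction, when 26.5% of tested genes were. shYthdf2_WT held the highest level of 6 of the 10 before the correction, where 26.4% of tested genes were highest, and of 4 after it, where 23.4% were.

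The comparison between the rescue libraries needs its GC dependence beside it. Among tested genes below 45% GC the median ratio of shYtdhf2_Mut to shYthdf2_WT was 0.23, and among those of 55% or more, where 6 of the 10 genes lay, it was -0.27. After the trends on GC content and exon length were removed, the list median became -0.47. The ratios were then -1.64 for *Ier3*, -1.45 for *Fos*, -0.64 for *Junb*, -0.54 for *Jun* and 0.97 for *Myc*. Those of *Jund* (-0.24), *Egr1* (-0.21) and *Ier2* (-0.11) shrank from uncorrected values of -0.63, -0.45 and -0.53. The ratio of shYthdf2_WT to shYthdf2_EV had a trend of opposite sign, with medians of -0.18 below 45% GC and 0.17 from 55%. Whether this dependence came from library preparation or from the cells was not tested.

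**Figure D3:**
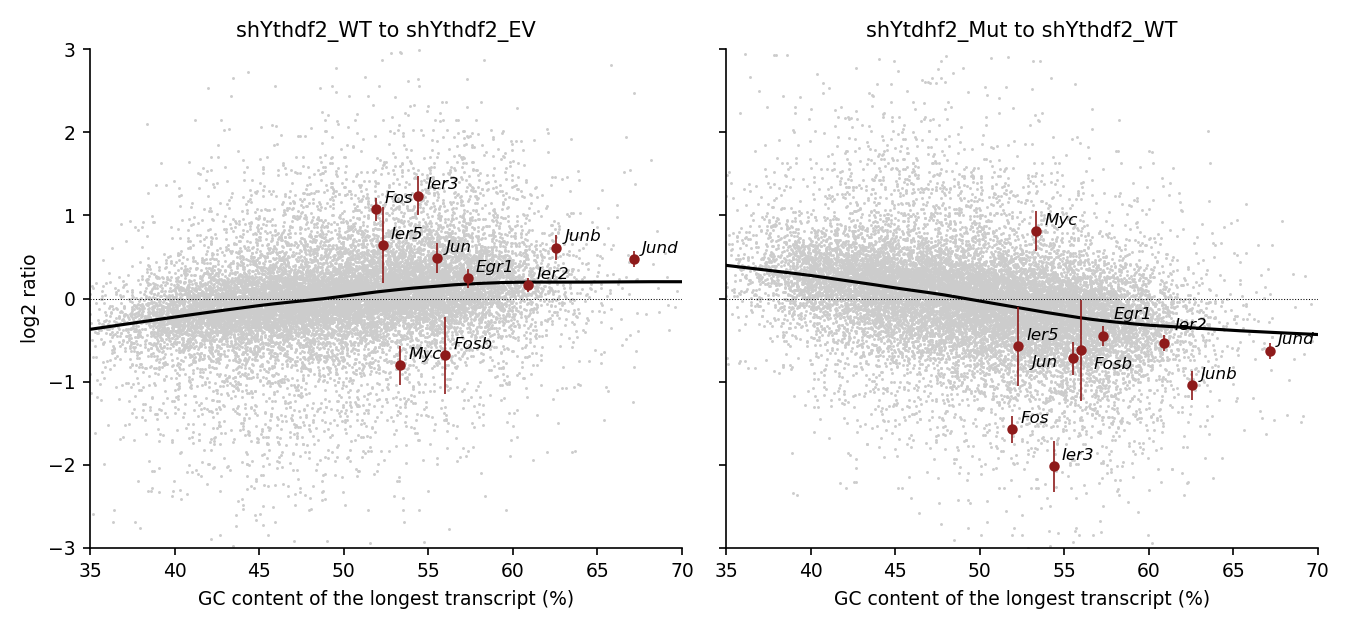
Log2 ratio against GC content of the longest transcript for 16985 tested genes (grey), with the smooth trend (black line) and the 10 genes (red, 95% counting intervals), for shYthdf2_WT to shYthdf2_EV (left) and shYtdhf2_Mut to shYthdf2_WT (right). Points outside the axes (115 left, 116 right) are not drawn. *Fos*, *Ier3* and *Myc* lay far from the trend in both panels, and *Ier2* lay close to it.

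The comparisons of knockdown with control and of mutant with wild-type rescue share no library. In them 8 of the 10 genes had the same sign, all but *Fosb* and *Ier2*, where 62.2% of tested genes did. After the GC and length correction it was 9 of 10 and 66.4%. *Fos* was -1.64 and -1.57 in the respective comparisons. It was the 1 gene of the 10 at least 2-fold different in the same direction in both, as were 836 of the 18586 tested genes. *Ier3* was -0.56 and -2.01 and *Egr1* -0.88 and -0.45. Genes of 1 sample are not independent, so these counts carry no test.

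**Figure D4:**
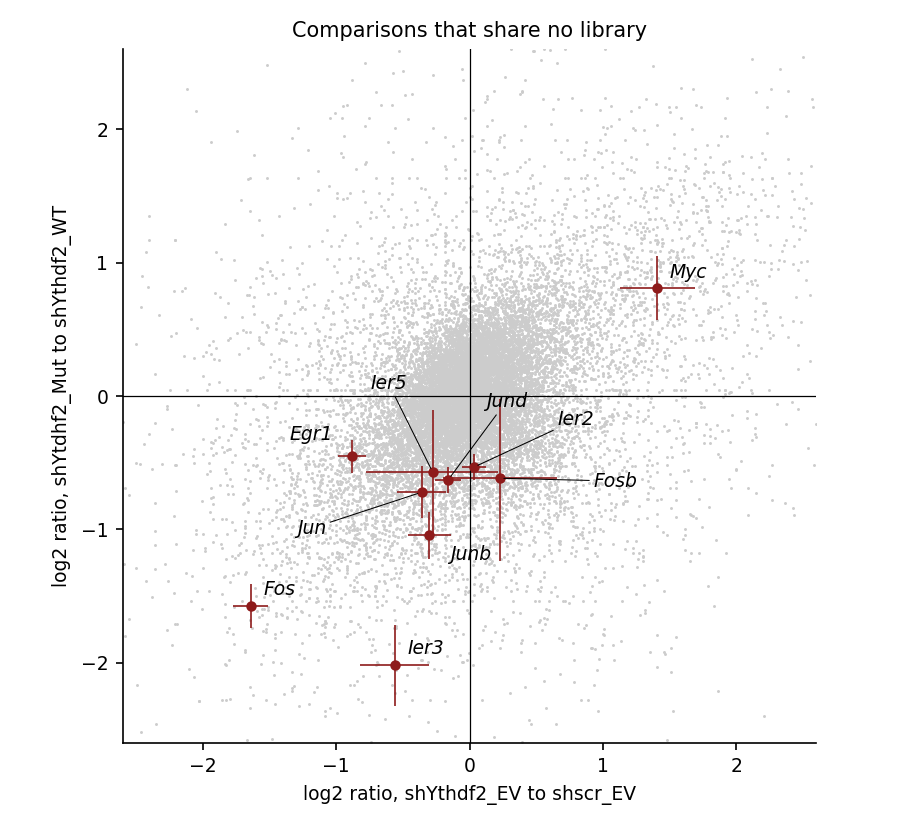
Log2 ratio of knockdown to control (horizontal) against mutant to wild-type rescue (vertical), which share no library, for tested genes (grey, 307 outside the axes not drawn) and the 10 genes (red, 95% counting intervals). *Fos* lies at -1.64 and -1.57, *Myc* at 1.40 and 0.81, and most other genes of the class lie below 0 on the vertical axis within 1 log2 unit of 0 on the horizontal.

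The 4 genes densest in ATTTA were *Ier3*, *Fos*, *Myc* and *Junb*, whose windows are printed above. They also had the 4 largest absolute ratios between the rescue libraries, at 2.01, 1.57, 0.81 and 1.04. They kept the first 4 places after the GC and length correction. *Ier2*, which has no ATTTA, held rank 9 of the 10 before and rank 10 after it. The direction was not shared, since *Myc* was higher with the mutant. This relation was noticed after the values were seen, and it did not hold in the other main comparisons. By absolute ratio *Fosb* ranked 1 and *Myc* 10 in shYtdhf2_Mut against shYthdf2_EV. In shYthdf2_EV against shscr_EV *Egr1* ranked 3 and *Junb* 6. In shYthdf2_WT against shYthdf2_EV *Fosb* ranked 4 and *Junb* 6. Over all genes with a mean of at least 200 reads and an annotated 3′ UTR, the absolute ratio was little larger where ATTTA was dense, with a median of 0.26 over 1066 genes with at least 4 copies per kb against 0.23 over 4259 genes with fewer than 1.

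A wider list of 30 other immediate early genes, of which 26 were tested, showed which neighbours shared these patterns. Between the rescue libraries 17 of the 26 were lower with the mutant and 9 higher, with a median of -0.20, where 51.0% of tested genes were lower. Of these 26, 4 were at least 2-fold lower against 6.21% of tested genes, and 2 at least 2-fold higher, *Ptgs2* and the weakly read *Egr2* (4 and 10 reads), against 5.40%. After the GC and length correction 16 were lower and the median was -0.06. The 4 lower calls were then lost, with *Maff* at -0.99, *Zfp36* at -0.97, *Egr4* at -0.96 and *Gadd45b* at -0.70. *Ptgs2* and *Egr2* stayed past 2-fold, at 1.22 and 1.23. *Zfp36*, whose product tristetraprolin binds AU-rich elements and promotes decay, had 864 reads in shscr_EV, 498 in shYthdf2_EV, 964 in shYthdf2_WT and 405 in shYtdhf2_Mut. It was at -0.98 (-1.21 to -0.75) in the knockdown against the control, 1.08 (0.86 to 1.31) in the wild-type rescue against the knockdown and -1.20 (-1.45 to -0.96) between the rescues. *Maff*, a small MAF protein, had 448, 343, 659 and 272 reads and ratios of -0.57 (-0.87 to -0.28), 1.07 (0.80 to 1.34) and -1.23 (-1.53 to -0.93). In both, control and wild-type rescue were above knockdown and mutant rescue.

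Other genes of the wider list were higher in the knockdown, as *Myc* was. *Ptgs2*, the inducible cyclooxygenase, had 36, 202, 71 and 205 reads, at 2.29 (1.57 to 3.11) in the knockdown, -1.38 (-1.98 to -0.82) with wild-type YTHDF2 against the knockdown and 0.20 (-0.21 to 0.61) with the mutant. *Atf3*, a stress-induced repressor that pairs with JUN proteins, had 72, 179, 138 and 155 reads and stood at 1.12 (0.55 to 1.73) in the knockdown and -0.25 (-0.72 to 0.22) in the wild-type rescue against the knockdown. In the knockdown against the control the 26 genes split into 13 higher and 13 lower, with a median of 0.00 (members' median bounds -0.26 to 0.20). Of them 4 were at least 2-fold higher, against 7.10% of tested genes, and 0 at least 2-fold lower, against 5.70%. The median of the 10 was -0.29 (-0.50 to -0.10) there. The bounds overlap, and the difference between the lists was not tested. With wild-type YTHDF2 against the knockdown 18 were higher, with a median of 0.21 (15 and 0.14 after correction), and with the mutant 11 were, with a median of -0.05 (12 and -0.01 after correction).

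**Figure D5:**
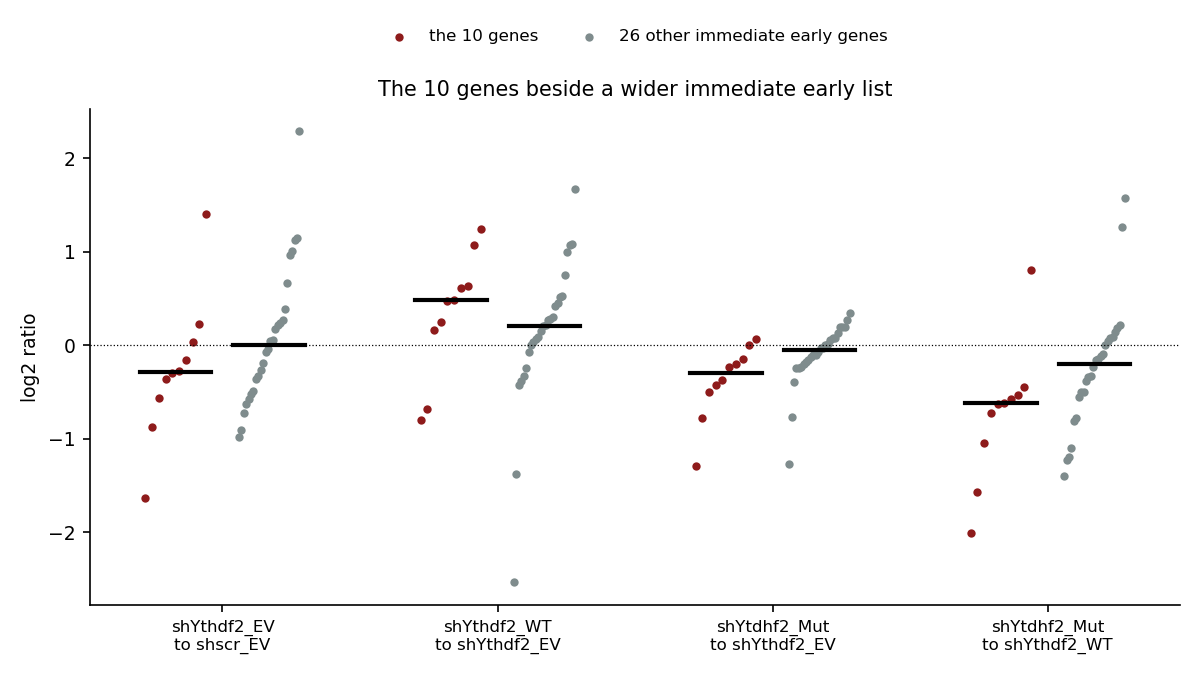
Log2 ratios of the 10 genes (red) and of 26 other immediate early genes (grey) in the 4 comparisons, each point a gene, sorted by value within a column, with black bars at the medians. Between the rescue libraries the median was -0.62 for the 10 genes and -0.20 for the others, and -0.47 and -0.06 after the GC and length correction.

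Genes that act with or upstream of these factors were counted in the same way. Across the 4 comparisons, 48.8% to 51.0% of tested genes were lower. At least 2-fold higher were 2.65% to 7.10% of tested genes, and at least 2-fold lower 3.38% to 6.21%. Of 20 tested AP-1 and MYC partners, 15 were higher in the knockdown than in the control (median 0.18). Between the rescues 11 were lower with the mutant (median -0.15), and 9 were after the GC and length correction (median 0.02), so the direction of this list turned. Besides *Maff* and *Atf3*, none of them with at least 50 reads on average was 2-fold different in any of the 4 comparisons. *Mycn*, the paralog of *Myc*, had 2712, 3624, 3234 and 2823 reads, at 0.23 (0.13 to 0.33) in the knockdown and -0.04 (-0.13 to 0.06) with wild-type YTHDF2. Of 21 upstream kinases and factors, from the MAPK and RSK kinases to SRF and its ELK partners, 9 were higher and 12 lower in the knockdown, with a median of -0.07, and 0 were 2-fold different in any of the 4 comparisons. Of 10 proteins that bind AU-rich elements, *Zfp36* was the 1 that differed 2-fold. This call was lost with the GC and length correction, at 0.94 in the wild-type rescue against the knockdown and -0.97 between the rescues. The median ratio of the 10 was between -0.06 and 0.11 in the 4 comparisons, and between -0.18 and 0.08 after the correction.

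Genes of handling and heat stress were read beside the class, because immediate early mRNAs also respond to the handling of a culture. Of 10 such genes, 8 were higher in the knockdown than in the control, with a median of 0.26. Of all tested genes, 50.2% were lower there and 7.10% at least 2-fold higher. *Hspa1a*, the inducible HSP70, had 104, 459, 218 and 215 reads and was at 1.95 (1.52 to 2.42) in the knockdown, with reads shared between it and the near-identical *Hspa1b* being uncertain. Between the rescue libraries 5 were higher and 5 lower, with a median of 0.01. The members went both ways there, with *Hspb1* at -0.61 (-0.67 to -0.55), *Hspe1* at -0.55 (-0.63 to -0.47), *Hsph1* at 0.36 (0.29 to 0.43) and *Hspa1a* at 0.03 (-0.37 to 0.43). After the GC and length correction these were -0.01, -0.35, 0.19 and 0.32, and the list median was -0.03. The part of culture handling in the levels of the 10 genes was not tested.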

How the data were processed

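Sequencing was of poly(A)+ RNA from 4 E14 ESC libraries, 1 per group, grouped by title. The deposited values are raw counts per gene. Counting was done by the authors, per the file headers with featureCounts 2.0.3, at exons of the UCSC mm39 RefSeq annotation, unstranded, with reads rather than pairs as the unit and multi-mapping or multi-overlapping reads left out by default. The submitters' processing notes list fastp 0.19.4, HISAT2 2.2.1, DESeq2 1.40.2 and mm10, without roles. None of the 10 genes overlaps an exon of another gene in the table. Replicates are stated in the study's methods, whereas each group has 1 library in the labels.

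Counts were scaled by TMM (edgeR 4.0.16, R 4.3.3), with a prior count of 0.5, and genes with a mean of at least 10 reads were analysed. A call was a 2-fold difference. Intervals are 95% Clopper-Pearson (ratios) or exact Poisson (levels) on read pairs, taken as reads divided by 2. Amplified reads are not independent molecules, so they cover counting error only. No count test was run, because no group had a replicate. Totals were 32382858, 35742335, 32584252 and 31533129 reads in shscr_EV, shYthdf2_EV, shYthdf2_WT and shYtdhf2_Mut, and 3 counts correspond to 0.0835 to 0.0949 CPM.

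GC content and exon number came from the longest GENCODE vM21 transcript of each symbol, with older symbols matched through RefSeq synonyms. The 3′ UTRs, the ATTTA and GGACT counts and the single-exon share came from the longest protein-coding transcript with an annotated 3′ UTR. The GC and length correction subtracted lowess trends (span 0.3, statsmodels 0.14.6) over 16985 of 18586 tested genes. That annotation is on mm10, so gene positions are those of the deposited mm39 table and sequence positions are mm10. The functions were tested on simulated counts. Named genes were the 10, *Ythdf2*, up to 4 genes a list with at least 50 reads on average and a 2-fold ratio whose interval excludes 0, and for *Fos* and *Myc* the 3 genes of nearest pattern. Other genes were named after their values were seen. The 10 genes and all lists were chosen with earlier results of these data known. Alternatives were other scalings, a prior of 5, the GC and length correction, centring on the chromosome, other filters and other thresholds.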

Additional observations from a re-analysis of the deposited data

How the results depend on the processing

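Of 76 alternative values for the list medians and the counts of genes at least 2-fold different, 70 stayed within the counting bounds or within 1.5 times the count, and none reversed. The number of genes at least 2-fold different in shYthdf2_WT against shYthdf2_EV was 2. It was 1 with the GC content and exon length correction (*Fos* at 0.98), 1 with ratios centred on the chromosome (*Fos* at 0.89) and 6 at a threshold of 1.5-fold. At 1.5-fold it was 2 in place of 1 in shYtdhf2_Mut against shYthdf2_EV and 7 in place of 3 in shYtdhf2_Mut against shYthdf2_WT. The share of all tested genes past 1.5-fold is not given here, so the counts at 1.5-fold have no background beside them. The list median of the last comparison was -0.62, and -0.47 with the GC content and exon length correction. That correction removes trends on GC content and exon length together, and the part of each in the change of this median was not separated. What made the trends was not tested. Of 280 values for single genes, 265 stayed within their counting intervals, and 4 changed sign, for *Ier2* (2 comparisons), *Jund* and *Myc*, each from a ratio within 0.2 of 0. These values leave out the rescue libraries against shscr_EV. In shYthdf2_WT against shscr_EV the GC and length correction also turned the sign of *Jund* (0.32 to -0.08) and of *Ier2* (0.20 to -0.10). No paired analysis was possible because each group has 1 library, and no replicate could be left out. The depth left *Fosb* and *Ier5*, with 78 to 217 reads, with intervals wide enough to include 0 in several comparisons.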

Other observations

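Cytoskeletal genes known as targets of SRF and MRTF showed small differences. Of 10 tested, 7 were lower in the knockdown than in the control library (median -0.15), where 50.2% of tested genes were lower. With wild-type YTHDF2 against the knockdown 7 were higher (median 0.19), where 49.6% of tested genes were lower. With the mutant against wild-type 8 were lower (median -0.23, and -0.12 after the GC and length correction), where 51.0% of tested genes were. *Cnn1*, a smooth-muscle calponin, had 86 reads in shscr_EV, 44 in shYthdf2_EV, 80 in shYthdf2_WT and 34 in shYtdhf2_Mut, at -1.14 (-1.96 to -0.38) in the knockdown and -1.17 (-2.10 to -0.33) between the rescues. There were 11 dual-specificity phosphatases, which switch off MAPK and are themselves induced early. Of these, 6 were higher and 5 lower in the knockdown, and 0 differed 2-fold in any of the 4 comparisons. Between 2.65% and 7.10% of tested genes were at least 2-fold different in a given direction in those comparisons.

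Of 12 MYC target genes, 8 were lower and 4 higher in the knockdown library, where *Myc* was at 264% of the control, with a median of -0.13. Of all tested genes, 50.2% were lower there and 7.10% at least 2-fold higher. *Ccnd2*, cyclin D2, was the 1 gene of these at least 2-fold different, with 45, 349, 95 and 327 reads in shscr_EV, shYthdf2_EV, shYthdf2_WT and shYtdhf2_Mut, at 2.76 (2.13 to 3.47) in the knockdown and -1.74 (-2.24 to -1.28) with wild-type YTHDF2 against the knockdown.

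Among 10816 other genes with a mean of at least 200 reads, the log2 ratios to shscr_EV nearest to those of *Myc* (1.40, 0.60 and 1.41 in shYthdf2_EV, shYthdf2_WT and shYtdhf2_Mut) were those of *Axin2* (1.32, 0.55 and 1.39, Euclidean distance 0.10), *Pdgfc* (1.36, 0.58 and 1.51, distance 0.11) and *Parm1* (1.36, 0.49 and 1.44, distance 0.12). Those nearest to *Fos* (-1.64, -0.56 and -2.14) were *Zc3h6* (-1.57, -0.48 and -1.62, distance 0.53), *Tmem63c* on the same chromosome (-1.74, -0.30 and -1.49, distance 0.71) and *Xlr3a* (-1.32, -0.51 and -1.48, distance 0.73). *Fos* was lower than each of these in shYtdhf2_Mut. 3 points per gene make this likeness a description only.

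3 further genes, picked after their values were seen, had more reads in control and wild-type rescue than in knockdown and mutant rescue. *Gadd45b* had 1526, 1051, 1918 and 862 reads, *Sgk1* 3453, 2094, 3231 and 1813, and *Jdp2*, an AP-1 repressor on the same chromosome as *Fos*, 460, 267, 441 and 222.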
